A study of Caenorhabditis elegans with 2 samples.

Results

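One-sided protein-coding promoters are the places where a ChIP-seq summit of the F10E7.11 protein lay at the 5′ end of a protein-coding gene, with no gene of the opposite direction starting close by. In the pooled list of candidate regions, a region was counted when its summit lay between 500 bp upstream and 100 bp downstream of an annotated protein-coding 5′ end. Summits between opposite 5′ ends at most 1000 bp apart were left out, and so were summits within 250 bp of a tRNA, snoRNA or snRNA gene. The rule used positions alone and no signal value. Of 18286 pooled regions, 3620 had a summit in a promoter, 304 of these lay between opposite 5′ ends, 109 lay near a small RNA gene, and 11 met both conditions. The remaining 3218 regions, 17.6% of the list with an exact 95% interval from 17.0% to 18.2%, are the one-sided promoters described here. They lay at 2853 of 19973 protein-coding genes. The sequence that could hold such a summit was 13.1% of the genome.

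The samples form 1 group of 2 biological replicates of strain OP658. Its worms carry the unc-119(tm4063) III mutation and the transgene wgIs658, which gives F10E7.11 a C-terminal GFP-FLAG tag. The material was whole young adults of mixed sex, 63 hours after starved L1 larvae were synchronised by bleaching, so signals of all tissues are summed. Chromatin was sonicated and precipitated with an anti-GFP antibody, although the antibody field of the labels gives F10E7.11 itself. There is no untagged or untreated group, control data were not analysed here, and all values come from the mutant background. The labels do not say how the transgene is driven.

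A promoter is the stretch beside a gene's start where transcription factors and RNA polymerase assemble. In C. elegans many transcripts receive a spliced leader, so an annotated 5′ end can be a splice site that lies downstream of the point where transcription begins. Many C. elegans genes also lie in operons, rows of genes on the same strand that are transcribed together, and then the 5′ end of a downstream gene sits shortly after the 3′ end of its neighbour. The X chromosome is regulated apart from the autosomes: it is dosage compensated in somatic cells of hermaphrodites and largely silent in the germ line.

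The summit sequences of the strongest one-sided promoters are shown to let the words at these sites be read in place. Each is 100 bp centred on the summit, from assembly ce11 (WBcel235), read 5′ to 3′ along the strand of the gene. Capitals mark matches, on either strand, to the words ACGCAG as well as GACGCA, to CACTCG, and CTGCGC along with CGAGAG, and to the longer AACACGCT. The windows of wwp-1, kin-14, ego-1 and W04C9.4, which are among the 20 strongest, were not considered for printing. Of the 12 strongest others, the 4 at kel-3, rpi-2, fubl-1 and Y39B6A.43 were in part UTR and are not shown either, so the 8 printed are a selection by position.
rpl-3 (chrIII:3867521-3867620, plus strand): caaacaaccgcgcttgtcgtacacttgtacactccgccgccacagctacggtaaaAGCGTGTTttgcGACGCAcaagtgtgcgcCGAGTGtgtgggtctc
adss-1 (chrV:4823865-4823964, minus strand): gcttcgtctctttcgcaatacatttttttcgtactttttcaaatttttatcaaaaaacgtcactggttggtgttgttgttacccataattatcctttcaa
cox-5A (chrIII:12905148-12905247, plus strand): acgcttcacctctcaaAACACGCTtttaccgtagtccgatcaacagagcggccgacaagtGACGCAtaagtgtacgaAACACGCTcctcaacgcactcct
rpl-35 (chrIII:7854662-7854761, plus strand): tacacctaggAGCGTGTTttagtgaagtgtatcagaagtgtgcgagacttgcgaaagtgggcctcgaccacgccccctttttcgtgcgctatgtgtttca
rpac-19 (chrIII:9629958-9630057, minus strand): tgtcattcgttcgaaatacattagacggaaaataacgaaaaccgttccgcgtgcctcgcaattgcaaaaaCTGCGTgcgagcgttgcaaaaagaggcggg
cdc-48.1 (chrII:10563503-10563602, minus strand): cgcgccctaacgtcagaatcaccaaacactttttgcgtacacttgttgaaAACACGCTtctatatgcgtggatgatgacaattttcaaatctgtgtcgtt
sec-61.G (chrV:10897346-10897445, minus strand): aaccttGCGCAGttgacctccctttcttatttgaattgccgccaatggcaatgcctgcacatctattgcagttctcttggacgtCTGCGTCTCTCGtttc
D2096.7 (chrIV:8377602-8377701, minus strand): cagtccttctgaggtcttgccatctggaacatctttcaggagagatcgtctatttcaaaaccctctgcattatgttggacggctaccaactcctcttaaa

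A copy of AACACGCT, or of its reverse complement AGCGTGTT, stood in 4 of the 8 printed windows, those of the ribosomal protein gene rpl-3, the cytochrome c oxidase subunit gene cox-5A, the ribosomal protein gene rpl-35 and the AAA ATPase gene cdc-48.1. That word was picked by reading the sequences, so its count in the strongest regions chose it. It was present in 15 of the 3218 windows (0.466%), in 31 of the other 15068 pooled regions (0.206%), and in 71 of 29773 windows of the same length centred 100 bp upstream of each distinct 5′ end (0.238%), 11 of the 29784 ends having the position of another gene's. The other words came from earlier results on these same peaks, so their counts at reproducible peaks are a description and no independent support. GACGCA stood in 19 of 129 one-sided promoters on the authors' list of reproducible peaks, 14.7%, against 5.05% of the remaining one-sided promoters and 3.15% of the promoter windows. The overlapping word ACGCAG, which shares 5 bases with it, was found in 12.4%, 4.86% and 3.28% of the same sets. CGAGAG was found in 15.5%, 5.18% and 3.67%, and CACTCG in 9.30%, 3.11% and 1.99%. CTGCGC differed less, with 5 of 129 (3.88%, 1.27% to 8.81%), 2.72% and 1.42%. The 446 reproducible peaks of other classes held GACGCA in 8.30%, ACGCAG in 11.0%, CGAGAG in 11.2% and CACTCG in 9.19%. They held CTGCGC in 8.52%, more often than the reproducible one-sided promoters. None of these words was thus particular to one-sided promoters. The runs TTTTTT or AAAAAA went the other way from these words. At the reproducible one-sided promoters, the others and the promoter windows they stood in 24.0%, 34.8% and 46.0%. The GATA element TGATAA was found in 6.20%, 6.80% and 12.01% of these sets. The promoter windows sit at a fixed distance from the 5′ end, unlike the summits. Against the other 15068 pooled regions, the runs were more frequent at one-sided promoters, 34.3% against 28.8%. GATA was about level, with 6.77% against 6.71%.

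In the separate replicate lists GACGCA and CGAGAG stood in the same order. GACGCA was found at 16.2% of the one-sided promoters among the 575 strongest regions of replicate 1 and at 4.76% of its weaker ones, and at 15.6% and 4.31% in replicate 2. CGAGAG was found at 15.4% and 4.85% in replicate 1 and at 10.9% and 5.22% in replicate 2. Base composition moved with these words: G+C content averaged 44.8% ± 9.17 (SD over 129 windows) at reproducible one-sided promoters, 40.8% ± 9.54 (SD over 3089 windows) at the others and 34.6% ± 8.36 (SD over 29773 windows) in the promoter windows. At the reproducible peaks of other classes G+C content was similar, with 45.8% ± 9.71 (SD over 446 windows). Its part in the word counts was not tested. The window of adss-1, an enzyme of AMP synthesis, had 32% G+C and none of the words, and that of D2096.7, an ELYS domain gene, had 45% and none of them.

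Each region carries a signal value from the authors' peak caller, on a scale of its own in each list, which serves to rank regions within that list. The candidate lists were made as input for a reproducibility procedure and hold background regions by design, so many one-sided promoters are weak candidates. The pooled value of the 3218 one-sided promoters had a median of 74.6 (exact 95% interval 73.5 to 75.4), quartiles of 63.7 and 93.2, and a range of 56.3 to 518. All other pooled regions had a median of 71.5. Divergent promoters, between opposite 5′ ends, had a median of 79.0, promoters near a small RNA gene 92.2, and regions outside promoters 71.3. The authors' list of 575 peaks past an irreproducible discovery rate (IDR) threshold holds the regions with the highest pooled signal. Of the one-sided promoters, 129 were on it, 4.01% (3.36% to 4.75%), against a background of 3.14% of all pooled regions. That share lay below the 8.87% (5.88% to 12.7%) of divergent promoters and the 17.4% (10.8% to 25.9%) of promoters near a small RNA gene, and above the 2.73% (2.48% to 3.01%) of regions outside promoters. A q-value under 0.05 was given to 244 one-sided promoters, 7.58%, against a background of 5.45%. Regions are not replicates, so these exact Clopper-Pearson intervals cover the number of regions and not the spread between worm cultures, and with 1 group no test between conditions exists.

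The share of one-sided promoters changed along the signal ranking. They made up 19.0% of the 100 strongest pooled regions (11.8% to 28.1%), 23.2% of ranks 101 to 575 (19.4% to 27.2%) and 23.7% of ranks 576 to 2000 (21.5% to 26.0%). The share was then 19.0% for ranks 2001 to 5000, 17.4% for ranks 5001 to 10000 and 15.8% beyond (15.1% to 16.6%). In the list of replicate 1 the 575 strongest regions held 22.6% (19.3% to 26.3%) and the whole list 17.7%. In the list of replicate 2 the values were 22.3% (18.9% to 25.9%) and 15.7%. In all 3 lists the share was thus above that of the whole list among the 575 strongest regions, and the interval of the weakest ranks lay below it.

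**Figure D1:**
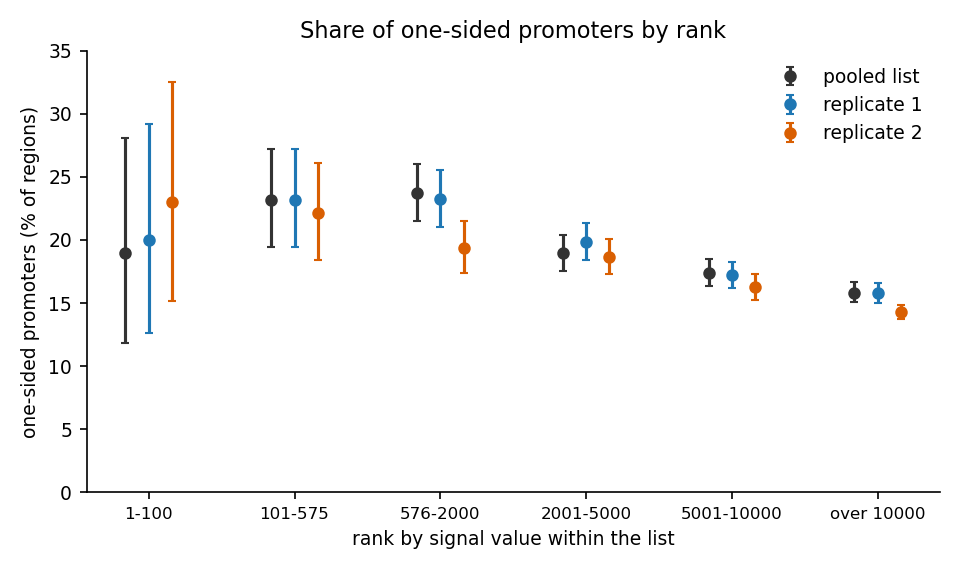
Share of one-sided promoters (y axis, % of regions) in 6 rank ranges by signal value (x axis), in the pooled list and in each replicate's list. Points are shares and bars exact 95% intervals; the pooled share is 23.7% for ranks 576 to 2000 and 15.8% beyond rank 10000.

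The strongest one-sided promoter lay 283 bp upstream of rpl-3 (chrIII:3867465-3867680), which encodes a protein of the large ribosomal subunit, and ranked 5 of all pooled regions, 5 in replicate 1 and 5 in replicate 2. Its signal was 518 in the pooled list, 367 in replicate 1 and 155 in replicate 2. The region at wwp-1 (chrI:536774-536986), a HECT-type ubiquitin ligase gene, had 472, 333 and 141 in the same lists. At kin-14 (chrI:7079249-7079775), a tyrosine kinase gene, the values were 442, 334 and 118.5. All 3 thus stood among the 15 highest ranks of both replicates. The BTB domain gene kel-3 (chrIII:13464671-13464791) followed with 389, 252 and 144. At ego-1 (chrI:7656609-7656815), an RNA-directed RNA polymerase gene of germ line RNA interference, they were 382, 238 and 148. W04C9.4, which encodes an uncharacterised protein, had 336, 231 and 99.1. Some of these regions were narrower or wider than most: rpl-3 had 216 bp, kel-3 121 bp and kin-14 527 bp, whereas 99.8% of one-sided promoters were 436 bp wide.

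Further down, the regions served a mixture of functions. rpi-2, the gene of an XRP2 protein, had 329 in the pooled list, 209 in replicate 1 and 121 in replicate 2. fubl-1, a KH domain gene, had 312, 235 and 83.8, and adss-1 had 302, 240 and 65.9. cox-5A, a subunit of the last complex of the respiratory chain, had 286, 208 and 86.8. rpl-35, another ribosomal protein gene, had 284, 180 and 99.9. The subunit of RNA polymerases I and III encoded by rpac-19 had 283, 205 and 89.4. The remaining 8 of the 20 strongest ran from 266 at cdc-48.1, a segregase that extracts ubiquitylated proteins, to 244 at R107.5. They included sec-61.G, a subunit of the translocon of the endoplasmic reticulum, with 264, prmt-5, a protein arginine methyltransferase, with 253, and ufbp-1, a DDRGK domain gene, with 248. The region at C47E8.11 also lay within the promoter of gasr-8. At the IDR boundary, the weakest one-sided promoter on the list was C17E4.11 with 154.97 and the strongest off it psr-1 with 154.86.

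The replicates matched only in part. A region of both replicates covered the summit of 1718 one-sided promoters, 53.4% (51.6% to 55.1%), against a background of 49.9% of all pooled regions. A region of replicate 1 alone covered 907, one of replicate 2 alone 498, and neither covered 95. All 129 reproducible one-sided promoters were covered in both, as were 573 of the 575 reproducible peaks of all classes (99.7%). The median signal was 58.8 in replicate 1 and 27.9 in replicate 2 over those covered, and 135 and 53.6 over the reproducible ones. Over the 1718 regions covered in both, Spearman's correlation of the replicate values was 0.369, given as a description, since the regions share 2 libraries. Within the 129 reproducible ones it was 0.136, and within the other 1589 it was 0.251. The word reproducible thus stands for a place on the authors' IDR list and not for close replicate values. Among the 575 strongest regions of each list, 130 of replicate 1 and 128 of replicate 2 were one-sided promoters, and 50 of them matched within 100 bp, 38.5% and 39.1% of the respective sets. Ranks could differ widely: eri-1, a 3′-5′ exonuclease gene of the RNA interference pathway, ranked 272 in replicate 1 with 141 and 23716 in replicate 2 with 18.4. In the opposite direction, F46F11.7 ranked 8893 in replicate 1 with 53.2 and 70 in replicate 2 with 83.7. Both were on the reproducible list with pooled values of 163 and 157. eri-1 falls under the rule for named genes; F46F11.7, C17E4.11 and psr-1 were picked because of their values.

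**Figure D2:**
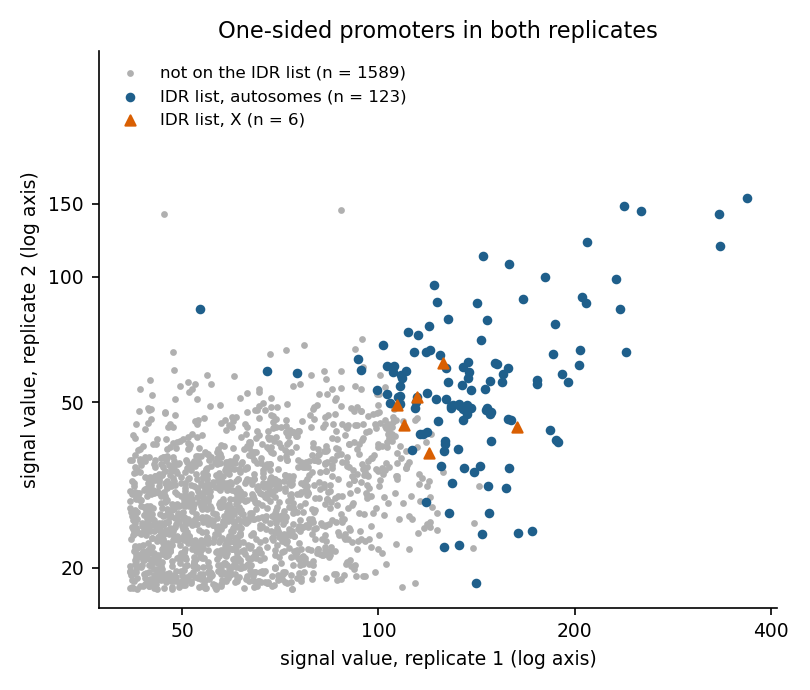
Signal value of the 1718 one-sided promoters covered by a region of both replicates, replicate 1 on the x axis and replicate 2 on the y axis, both logarithmic. Each point is a region: 1589 are not on the reproducible list, 123 are on it and on autosomes, and 6 are on it and on X; the strongest points, rpl-3 among them, are high in both replicates, while points of the reproducible list reach down to 18.4 in replicate 2 and points off it up to 145.

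Summits gathered around the 5′ end. The median signed distance was −139 bp (−148 to −127), that is, upstream, with quartiles of −299 bp and 0 bp. Within 100 bp of the 5′ end lay 1419 summits, 44.1% (42.4% to 45.8%), and 24.6% lay downstream of it. For the 129 reproducible one-sided promoters the median was −123 bp (−167 to −85), which overlaps the interval of the whole set. It was −109.5 bp in the 575 strongest regions of replicate 1 and −118.5 bp in those of replicate 2, against −140 bp and −146 bp for the weaker one-sided promoters of the same lists. Signal varied little with distance: in 6 bins of 100 bp the median pooled signal lay between 72.4, from −400 to −300 bp, and 75.9, from −300 to −200 bp.

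Because the rule fixes the window, the density on both sides of its borders shows more than the median. Summits and sequence between opposite 5′ ends or near a small RNA gene were left out of this density too. The remaining pooled regions reached 317 per Mb of the remaining sequence between 0 and 50 bp downstream and 304 per Mb in the 50 bp upstream. Density was 192 per Mb just inside the upstream border of the window, from −500 to −450 bp, and 162 per Mb just outside it, from −550 to −500 bp. At the downstream border it was 310 per Mb inside, from 50 to 100 bp, and 271 per Mb outside, from 100 to 150 bp, so the rise around the 5′ end continued past the window. Reproducible peaks were sparser and more scattered: 23 of them lay in the 50 bp upstream, 20.5 per Mb, 3 in the preceding 50 bp, 2.80 per Mb, and 19 in the bin from −150 to −100 bp, 18.1 per Mb.

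**Figure D3:**
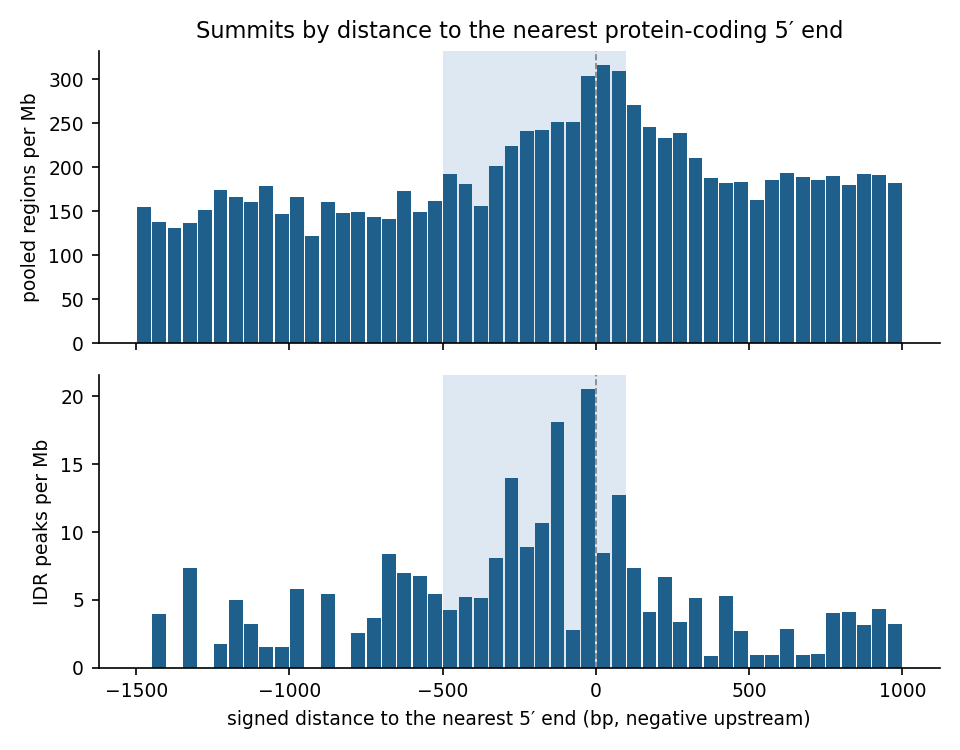
Density of pooled regions (upper panel) and of reproducible peaks (lower panel), in regions per Mb of sequence, against the signed distance of the summit to the nearest protein-coding 5′ end in bins of 50 bp, negative upstream. Summits and sequence between opposite 5′ ends or near a small RNA gene are left out. The shaded band is the promoter window and the dashed line the 5′ end; pooled regions reach 317 per Mb beside the 5′ end, and the lower panel rests on at most 23 peaks a bin.

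The summits lay in several kinds of sequence. Intergenic sequence held 1322 of them (41.1%), coding exons 763 (23.7%), introns or other noncoding parts of protein-coding genes 639 (19.9%), 5′ UTRs 266 (8.27%), 3′ UTRs 163 (5.07%) and noncoding genes 65 (2.02%). Of the 129 reproducible one-sided promoters 76 were intergenic (58.9%), among them rpl-3, ego-1, cox-5A and rpac-19. In the 575 strongest regions of replicate 1 the intergenic share was 59.2%, against 41.2% in its weaker one-sided promoters, but in replicate 2 it was 43.8% against 40.4%. The difference was thus much smaller in replicate 2. The nearest 5′ end was the outermost annotated one of its gene in 82.9% (75.3% to 89.0%) of the reproducible set and in 70.3% (68.7% to 71.9%) of the rest, with 80.0% and 70.1% in replicate 1 and 81.3% and 69.7% in replicate 2.

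A close gene upstream on the same strand was frequent at the strongest sites. The distance was measured from the outermost 5′ end of the gene to the nearest upstream end of another protein-coding gene of the same strand. It was at most 500 bp at 69 of 129 reproducible one-sided promoters, 53.5% (44.5% to 62.3%), and at 28.8% (27.2% to 30.4%) of the others. Replicate 1 gave 52.3% (43.4% to 61.1%) among its 575 strongest regions and 29.3% among the weaker, and replicate 2 gave 51.6% (42.6% to 60.5%) and 26.7%. The share over all protein-coding genes was 18.1%. That set includes the divergent starts that the rule leaves out, and how far this alters the share was not tested. Examples are kel-3, whose start lay 168 bp after its neighbour, rpac-19 with 212 bp, rpi-2 with 135 bp, ufbp-1 with 303 bp and prmt-5 with 19 bp. rpl-35 and cox-5A, with 13643 bp and 24790 bp, had no such neighbour. Median pooled signal was 81.3 with a close upstream gene, over 958 regions, and 72.4 without, over 2260 regions. This difference was that of the autosomes, with 81.7 and 72.3. On X the medians were 71.2, over 42 regions, and 72.5, over 443 regions. A close upstream gene stood at 33.5% of autosomal one-sided promoters, against 19.4% of autosomal genes. On X it was 8.66%, against 9.81% of X genes. Operon annotation was not used here, and the higher share of outermost 5′ ends in the reproducible set moves with this measure; its part was not tested.

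Chromosome X held 485 one-sided promoters, 15.1% (13.9% to 16.4%), which equals its 15.1% of the sequence that could hold one. Over all pooled regions the X share was 17.2%. Among the 129 reproducible one-sided promoters only 6 lay on X, 4.65% (1.73% to 9.85%). The 446 other reproducible peaks had 99 on X, 22.2% (18.4% to 26.3%). Put the other way, 1.24% (0.455% to 2.67%) of one-sided promoters on X and 4.50% (3.75% to 5.35%) of those on autosomes were on the reproducible list, while over all pooled regions the shares were 3.33% on X and 3.11% on autosomes. On the single autosomes the share of one-sided promoters that were reproducible ran from 3.48% on V (2.17% to 5.27%) to 5.14% on IV (3.47% to 7.30%). Of the divergent promoters 8 of 293 lay on X, 2.73%. The X share of the sequence between opposite 5′ ends was not measured, so this value has no baseline.

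Each replicate showed the low X share by itself. In the 575 strongest regions of replicate 1, 5 of 130 one-sided promoters lay on X, 3.85% (1.26% to 8.75%), against 21.1% of the other regions. In replicate 2 it was 6 of 128, 4.69% (1.74% to 9.92%), against 19.7%, and 2 of these regions were shared by both replicates. Below the strongest 575, X held 15.5% of the one-sided promoters in replicate 1 and 16.6% in replicate 2. None of the one-sided promoters in the 100 strongest regions of any of the 3 lists was on X. Over all one-sided promoters the signal hardly differed: the pooled median was 72.4 (70.5 to 75.2) on X and 74.9 (73.8 to 75.8) on autosomes, a ratio of 0.968, with ratios of 0.971 in replicate 1 and 0.959 in replicate 2.

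**Figure D4:**
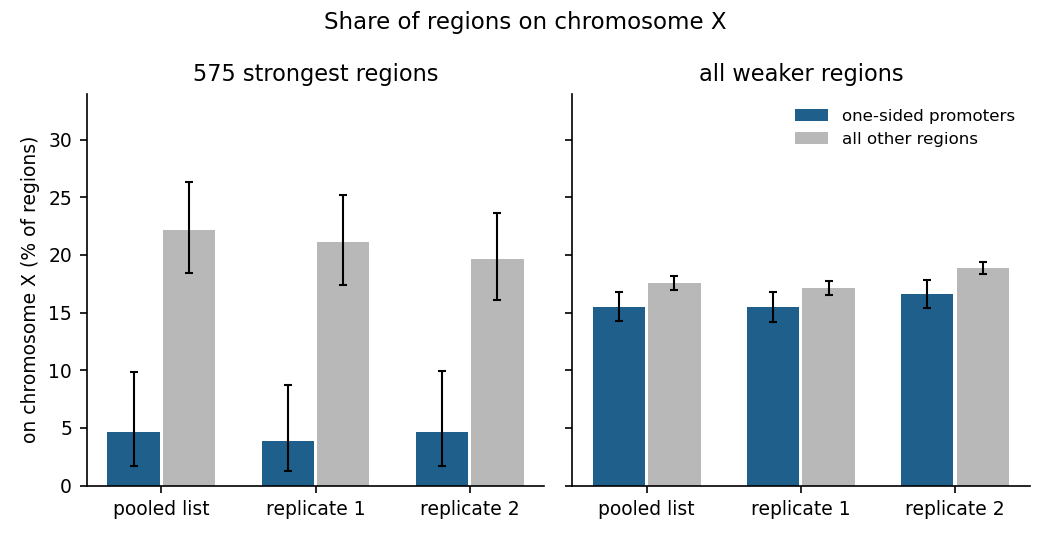
Percent of regions on chromosome X (y axis) for one-sided promoters and for all other regions, in the 575 strongest regions of each list (left) and in the weaker regions (right). Bars are shares and lines exact 95% intervals; one-sided promoters are at 4.65% in the strongest pooled regions and at 15.5% in the weaker ones.

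The strongest one-sided promoter on X lay 14 bp upstream of sto-4 (chrX:11643894-11644329), a stomatin gene, and had a pooled signal of 202, with 163 in replicate 1 and 43.7 in replicate 2. unc-2 (chrX:2731318-2731753), the gene of a voltage-gated calcium channel subunit, had 194, 126 and 62.2. rabr-1 of the Rab family had 167, 115 and 51.3, and the ribosomal protein gene rpl-11.2 had 166, 109 and 44.0. The last reproducible ones were F13C5.2, a bromodomain gene, with 161, and pqn-65, a gene of a Q/N-rich protein, with 157. Next came pab-2, a poly(A)-binding protein gene, with 150, and T13C5.6 with 149, both off the reproducible list. The highest value on X, at sto-4, was below all of the 20 strongest one-sided promoters. Gene arrangement moved with chromosome: 9.81% of X genes and 19.4% of autosomal genes had a same-strand neighbour within 500 bp upstream. Where there was such a neighbour, 69 of 916 autosomal one-sided promoters were reproducible, 7.53% (5.91% to 9.44%), and 0 of 42 on X, which allows a share of up to 8.41% by the exact interval. Where there was none, 54 of 1817 on autosomes were, 2.97% (2.24% to 3.86%), and 6 of 443 on X, 1.35% (0.499% to 2.92%). The intervals of X and autosomes overlap in both comparisons. Median G+C content at the summit was 43% on X and 40% on autosomes, while over both it was higher in the reproducible set, with medians of 46% and 41%. Neither value's part in the X share was tested.

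Gene functions were described with 35 lists defined by gene symbol, each set against the 14.3% (13.8% to 14.8%) of all protein-coding genes that had a one-sided promoter region and the 0.646% (129 genes) that had a reproducible one. Genes with a 3- or 4-letter symbol stood at 16.2% and genes with a sequence name alone at 11.96%, so lists made from symbols start above the average. The highest share was that of aminoacyl-tRNA synthetases, the enzymes that charge tRNAs, with 13 of 32 genes, 40.6% (23.7% to 59.4%), none of them on the reproducible list. Mitochondrial import and fission genes followed with 7 of 21 (33.3%, 14.6% to 57.0%) and signalling kinases with 16 of 50 (32.0%, 19.5% to 46.7%). A high share did not always go with strong regions. The median of the strongest signal per gene was 71.4 for the synthetases and 71.9 for import and fission. It was 90.3 for the kinases, and 75.9 over all genes with a one-sided promoter region. Replication and cell cycle genes had 26 of 85 (30.6%, 21.0% to 41.5%), ubiquitin conjugation genes 24 of 83 (28.9%, 19.5% to 39.9%) and cytosolic ribosomal protein genes 20 of 81 (24.7%, 15.8% to 35.5%). The ribosomal share was 8.64%, below that of all genes, with a window of 250 bp upstream, and 38.3% when opposite 5′ ends counted as divergent only within 500 bp.

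Several large gene families stood below the average. Chemosensory receptors, which act in sensory neurons, had 52 of 1316 genes, 3.95% (2.96% to 5.15%), and major sperm and other sperm proteins 4 of 130, 3.08% (0.845% to 7.69%). C-type lectins had 10 of 240 (4.17%) and F-box and MATH-BTB genes 22 of 412 (5.34%). Detoxification enzymes of the cytochrome P450 and transferase families had 10 of 185 (5.41%). The symbol list named for cuticle collagens had 20 of 263 (7.60%). Its symbols also take in dpy-28, which held the strongest region of that list, so its share is not that of cuticle genes alone. None of these 6 lists had a gene on the reproducible list. The F-box list goes by symbol, however, and leaves out fbxl-2, which was on the reproducible list with a pooled signal of 174. Nuclear hormone receptors, with 35 of 269, stood at 13.0% (9.23% to 17.6%), and muscle genes at 26.5% (12.9% to 44.4%), also with none on it.

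**Figure D5:**
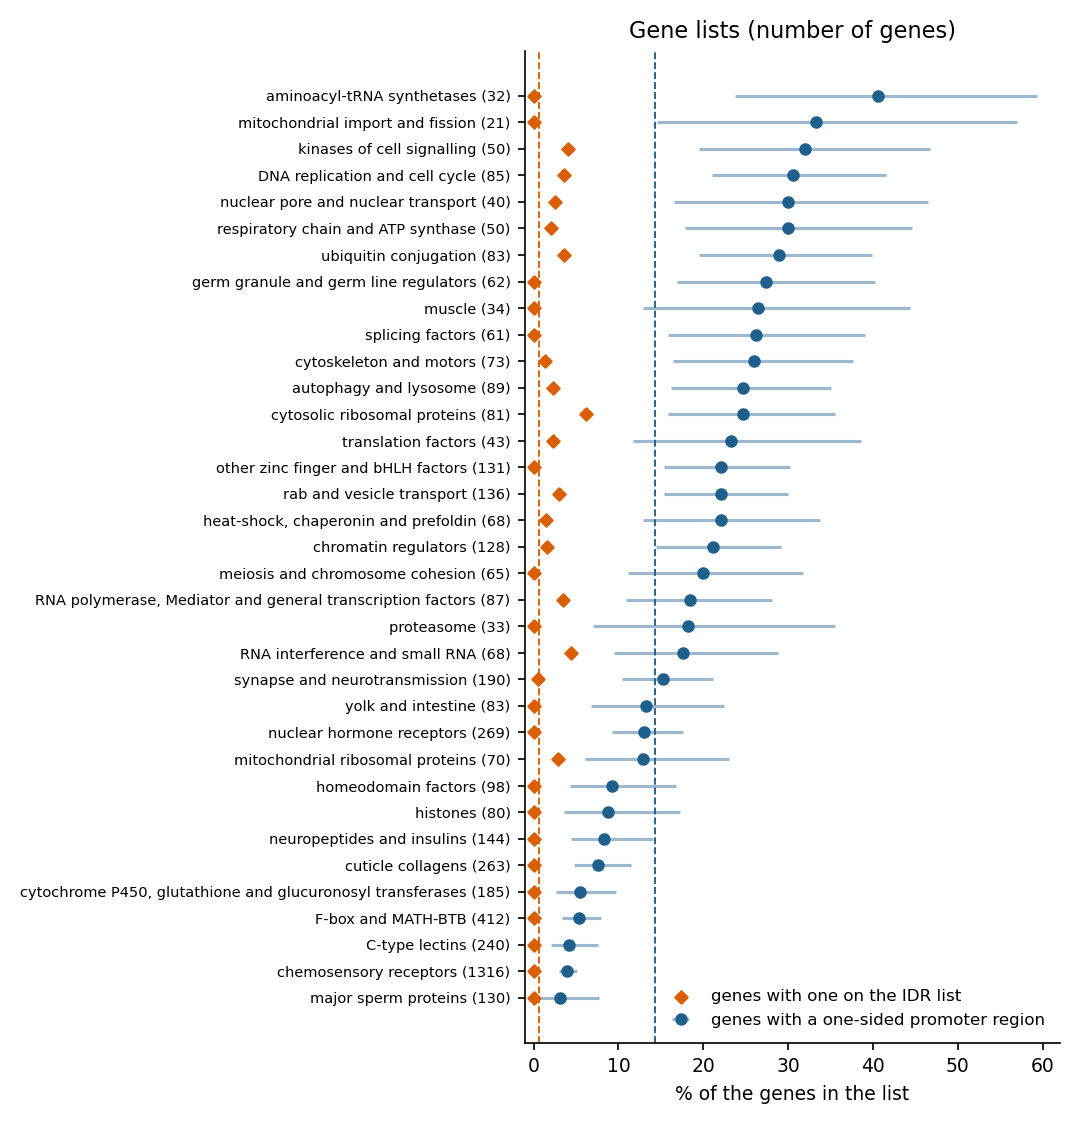
Percent of the genes of each symbol-defined list (x axis; list size in brackets) with a one-sided promoter region (circles, with exact 95% intervals) and with one on the reproducible list (diamonds). Dashed lines are the values over all protein-coding genes, 14.3% and 0.646%; aminoacyl-tRNA synthetases are highest by circles at 40.6% and cytosolic ribosomal proteins highest by diamonds at 6.17%.

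By reproducible regions the order of the lists differed. Cytosolic ribosomal proteins had 5 of 81 genes on the reproducible list, 6.17% (2.03% to 13.8%), and the median of the strongest signal per gene was 103, against 75.9 over all genes with a one-sided promoter region. The 5 were rpl-3, rpl-35, rpl-24.2, rps-16 and rpl-11.2; RefSeq describes rpl-24.2 as a ribosome biogenesis protein. The region at rpl-24.2 had a signal of 237 in the pool, 147 in replicate 1 and 78.6 in replicate 2, while rps-16 had 166, 106 and 61.0. RNA interference genes had 3 of 68 (4.41%, 0.919% to 12.4%): ego-1, eri-1 and the Tudor domain gene eri-5, whose region had 183, 111 and 73.9. The symbol list of rab and vesicle transport genes had 4 of 136 (2.94%, 0.807% to 7.36%). Those were the translocon gene sec-61.G, arf-1 with 177, rab-7, a GTPase of late endosomes, with 168, and vps-4, an ATPase of endosomal sorting, with 159. This list is incomplete, since rabr-1 of the Rab family was on the reproducible list but is not counted in it.

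The symbol list of ubiquitin conjugation genes had 3 of 83 on the reproducible list (3.61%, 0.752% to 10.2%), namely wwp-1, ubc-3 with 186 and ufd-3 with 169. Ubiquitin genes with symbols that this list does not cover were not counted. The E1 enzyme gene uba-1 was off it with 132. Replication and cell cycle genes had 3 of 85 (3.53%, 0.734% to 9.97%): cdc-48.1, the sliding clamp gene pcn-1 with 201, and cdk-7, a kinase of the cell cycle and of transcription, with 163. The anillin gene ani-1 had 143 and was off it. Transcription machinery had 3 of 87 (3.45%, 0.717% to 9.75%): rpac-19, the RNA polymerase II subunit gene rpb-11 with 177, and the TFIID subunit gene taf-9 with 165. The TFIIF gene gtf-2F1 had 145 and was off it. For ufd-3 the replicates stood at ranks 335 and 14220, and for taf-9 at 506 and 6657, so their place on the list went with replicate 1. The upper ends of these intervals ran from 7.36% to 13.8%, and each count rests on at most 5 genes.

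F10E7.11 itself, on chromosome II from 7120517 to 7122892, had 1 one-sided promoter region, with a pooled signal of 68.9 and rank 10478, below the median of the set. unc-119, the gene mutated in the strain, had none; the strongest of its 4 regions within 1000 bp lay outside the promoter window with 103.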

How the data were processed

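ChIP-seq of 1 strain was deposited as peak lists for 2 biological replicates and their pool; there is 1 group, so no conditions were compared. The signal value of each region, the −log10 of its q-value and its summit are the authors' values, as deposited. Which aligner, peak caller, versions and IDR threshold were used was not given in the sources used here, and how they shaped the signal was not tested. Per the deposited file lists the candidate lists hold peaks and background as input for IDR. Read depth is unknown, and intervals cover numbers of regions only.

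The ce11 lists (18116 regions for replicate 1, 25275 for replicate 2) were joined to Ensembl release 115 genes on WBcel235, with the 29784 5′ ends of all transcripts of protein-coding genes. A replicate's value is that of its region covering the pooled summit, with the nearest summit where several did. Shares have exact Clopper-Pearson intervals and medians order-statistic intervals. Software was Python 3.11.15 with pandas 2.3.3, scipy 1.17.1 and numpy 2.4.6, and figures used matplotlib 3.10.9. The classification was tested on simulated data.

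Members, gene lists and words were chosen with earlier results of these data known. Named genes are those at the 20 strongest one-sided promoters, at the 8 strongest on X, and up to 4 of each list with at least 3 genes on the reproducible list, with F10E7.11 and unc-119. Products are RefSeq's. Alternatives were other promoter windows, gene starts, distances, thresholds and each replicate alone. The ce10 lists were not used.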

Additional observations from a re-analysis of the deposited data

How the results depend on the processing

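With a promoter window from 1000 bp upstream the number of one-sided promoters was 4886 and the median distance −304 bp; with 250 bp the distance was −42 bp. Counting any overlap of region and window gave 5051 regions and −72 bp. Only regions with a q-value under 0.05 gave 244 regions, −116.5 bp and an X share of 5.33%, and the reproducible list alone gave 129 regions, −123 bp and 4.65%. From 1 replicate alone, the number ran from 3200 to 3960, the distance from −144 to −138 bp, the X share from 15.0% to 16.2% and the share whose summit lay in a reproducible peak from 3.94% to 4.88%. The window and threshold changes alter which summits can count; the cause of the others was not tested. For these 4 measures, 34 alternatives moved the value by less than its interval, or by less than 1.5 times for the number. Another 12 moved it further. The share of ribosomal protein genes depended on the rule: it was 8.64% with the 250 bp window, below the 14.3% of all genes instead of above it, and 38.3% with opposite 5′ ends at most 500 bp apart. For the share of X one-sided promoters that were reproducible, the values stayed between 0.940% and 1.82%, and on autosomes between 3.86% and 5.44%. No paired analysis was possible because there is 1 group. Limits are 2 replicates, no control analysed here, unknown depth, whole worms and symbol-based gene lists.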

Other observations

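Some genes had several one-sided promoter regions: 364 genes had at least 2, and ajm-1, par-1, nurf-1 and jun-1 had the most, 5 each. ajm-1 encodes a protein of epithelial junctions and par-1 a polarity kinase. Their strongest pooled signals were 122, 117, 102 and 83.8, all below the 154.97 of the weakest reproducible one-sided promoter. These genes were chosen after their values were seen. Neighbouring one-sided promoter regions overlapped in 233 pairs.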
